A study of Drosophila melanogaster with 3 samples.

Results

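Aminoacyl-tRNA synthetase genes were examined in chromatin immunoprecipitation followed by sequencing (ChIP-seq) of the nuclear receptor Hr51 in Drosophila embryos. The genes were taken from the Ensembl annotation of the Release 6 genome as all protein-coding genes whose symbol is a 3-letter amino acid name followed by RS, with the ending -m for enzymes of the mitochondrion. This gave 35 of 13945 protein-coding genes, 20 for cytosolic enzymes and 15 for mitochondrial ones, and together they covered all 20 amino acids. The class was read from the symbol alone. Genes without -m were counted as cytosolic, whether or not their enzymes also serve the mitochondrion. GluProRS is a single gene for a fused enzyme of 2 amino acids, and alpha-PheRS and beta-PheRS encode the 2 subunits of one enzyme. Genes were picked by name only and by no measured value, but the family was chosen with earlier results of these data known.

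All 3 samples belonged to 1 group, biological replicates of whole embryos of both sexes collected between 0 and 24 h of age. They came from a transgenic line, Dhr51-GFP, that stably carries Hr51 with GFP fused to its C terminus, so the whole time span and all tissues of the embryo were pooled in each sample. A description in the labels has the fusion protein precipitated with an antibody against GFP, whereas the antibody field reads Hr51. Sonicated fragments were 200 to 800 bp long, no control library was among the samples, and the possible control experiment named in the labels was not analysed here. The files give no read numbers, so depth is unknown and the intervals below cover the counting of genes only.

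Aminoacyl-tRNA synthetases attach each amino acid to its transfer RNA, the step that sets the genetic code before the ribosome reads it. Animal cells need this reaction in the cytosol and again in the mitochondrion, and most amino acids have a separate nuclear gene for each place. Several cytosolic enzymes assemble into a multisynthetase complex, and in mammals many synthetase genes are raised by the transcription factor ATF4 when amino acids run short. The fly gene for ATF4 is crc. Hr51, also called unfulfilled, belongs to the NR2E group of nuclear receptors and is known for its part in mushroom body neurons.

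The promoters that carry the findings below are shown first, upstream of the 5′ end of the gene to at most 200 bp and shortened where an annotated exon of any gene begins. They are written 5′ to 3′ on the strand of the gene, from the RefSeq copy of the Release 6 genome, whose coordinates are those of dm6. Capitals mark exact matches, on either strand, to the consensus sequences TATCGATA (bound by DREF and BEAF), CACGTG (the E-box), TGATGNAA (the ATF4 response element), AAGTCA (the half-site of NR2E receptors) and TATAAA (the TATA box), and to that of M1BP. The first 5 are cytosolic genes with a peak in the reproducible list, the next 2 are the mitochondrial genes with one, and the last 2 are cytosolic genes that hold the DREF/BEAF consensus without such a peak.
GluProRS (chr3R:23958392-23958591, − strand): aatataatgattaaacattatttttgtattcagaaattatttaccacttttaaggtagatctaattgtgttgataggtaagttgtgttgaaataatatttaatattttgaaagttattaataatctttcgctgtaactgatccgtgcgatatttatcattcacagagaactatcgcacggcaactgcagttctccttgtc
ThrRS (chr2L:12103551-12103750, + strand): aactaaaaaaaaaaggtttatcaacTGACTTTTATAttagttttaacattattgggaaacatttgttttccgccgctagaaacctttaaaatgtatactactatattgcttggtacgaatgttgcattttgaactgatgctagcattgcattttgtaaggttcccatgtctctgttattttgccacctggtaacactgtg
IleRS (chr3L:22288465-22288664, + strand): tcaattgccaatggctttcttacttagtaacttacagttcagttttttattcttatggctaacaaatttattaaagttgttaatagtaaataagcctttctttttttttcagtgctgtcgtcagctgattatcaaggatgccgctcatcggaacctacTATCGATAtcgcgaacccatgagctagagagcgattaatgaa
beta-PheRS (chr3R:24252680-24252825, − strand): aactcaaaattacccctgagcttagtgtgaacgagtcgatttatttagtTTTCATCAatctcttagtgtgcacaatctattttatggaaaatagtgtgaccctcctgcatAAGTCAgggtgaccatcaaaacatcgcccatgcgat
ArgRS (chrX:15844146-15844345, − strand): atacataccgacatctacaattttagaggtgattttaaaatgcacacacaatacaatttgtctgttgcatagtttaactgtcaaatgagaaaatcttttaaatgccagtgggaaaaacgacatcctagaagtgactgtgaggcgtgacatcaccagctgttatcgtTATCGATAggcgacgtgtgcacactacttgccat
ArgRS-m (chr3R:7886845-7887044, + strand): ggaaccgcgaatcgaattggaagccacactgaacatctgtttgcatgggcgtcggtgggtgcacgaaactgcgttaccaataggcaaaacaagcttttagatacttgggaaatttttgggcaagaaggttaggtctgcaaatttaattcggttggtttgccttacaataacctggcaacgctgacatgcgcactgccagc
LeuRS-m (chr3L:4825688-4825852, + strand): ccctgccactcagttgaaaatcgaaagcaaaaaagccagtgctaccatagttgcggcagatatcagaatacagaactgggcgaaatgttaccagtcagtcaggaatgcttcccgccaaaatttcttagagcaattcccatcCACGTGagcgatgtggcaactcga
AlaRS (chr2L:8381765-8381820, − strand): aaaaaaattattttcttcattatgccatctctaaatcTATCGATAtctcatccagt
TrpRS (chr3R:9266905-9267018, − strand): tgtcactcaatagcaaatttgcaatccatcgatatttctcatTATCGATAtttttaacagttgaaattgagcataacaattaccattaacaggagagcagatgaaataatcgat
In ThrRS the half-site and the TATA box consensus overlap and form 1 run of capitals. GluProRS, with a peak among the strongest of the family, and ArgRS-m, with the strongest mitochondrial one at the 500 bp limit used below, have no capitals at all.

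In the reproducible list, cytosolic synthetase genes had a promoter peak more often than protein-coding genes at large, and mitochondrial synthetase genes did not. A promoter peak is a peak whose summit lay within 500 bp of any annotated transcript start of the gene. In the list of 3496 peaks that passed the irreproducible discovery rate (IDR) across replicates, 10 of the 35 genes had one, 28.6% (exact 95% interval 14.6 to 46.3), against 19.1% of all protein-coding genes. The 10 were 8 of the 20 cytosolic genes, 40.0% (19.1 to 63.9), and 2 of the 15 mitochondrial genes, 13.3% (1.66 to 40.5). The interval of the cytosolic genes starts at the level of all genes, and that of the mitochondrial genes spans it. Of the 20 cytosolic genes, 16 had a start of another protein-coding gene within 500 bp of theirs. An IDR promoter peak was at 7 of these 16, 43.8% (19.8 to 70.1), near the 37.2% of all genes with such a neighbour.

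The same difference was seen in each replicate by itself. Here each replicate's 3496 peaks of highest signal were used as its top list, with promoter peaks at 19.3%, 18.7% and 18.3% of all genes in replicates 1, 2 and 3. Cytosolic genes had promoter peaks at 10, 8 and 8 of 20 in the 3 replicates, a mean of 43.3% ± 5.77 (SD, n = 3). Mitochondrial genes had them at 3, 2 and 0 of 15, a mean of 11.1% ± 10.2 (SD, n = 3), and 0 of 15 allows a share of up to 20% by the limit of 3 counts in 15 and up to 21.8% by the exact interval. The replicate shares of both classes did not overlap, but the replicates count the same genes. The exact intervals over genes overlapped in each replicate, with 27.2 to 72.8 and 4.33 to 48.1 in replicate 1. In replicate 3 the cytosolic interval was 19.1 to 63.9, against the mitochondrial limit of 21.8%. The cytosolic share exceeded the mitochondrial one by 30.0, 26.7 and 40.0 percentage points in replicates 1, 2 and 3, a mean of 32.2 ± 6.94 (SD, n = 3). An exact two-sided sign-flip test over the 3 replicates gave p = 0.25, which is the smallest value that 3 replicates allow, so the test cannot pass the usual threshold.

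**Figure D1:**
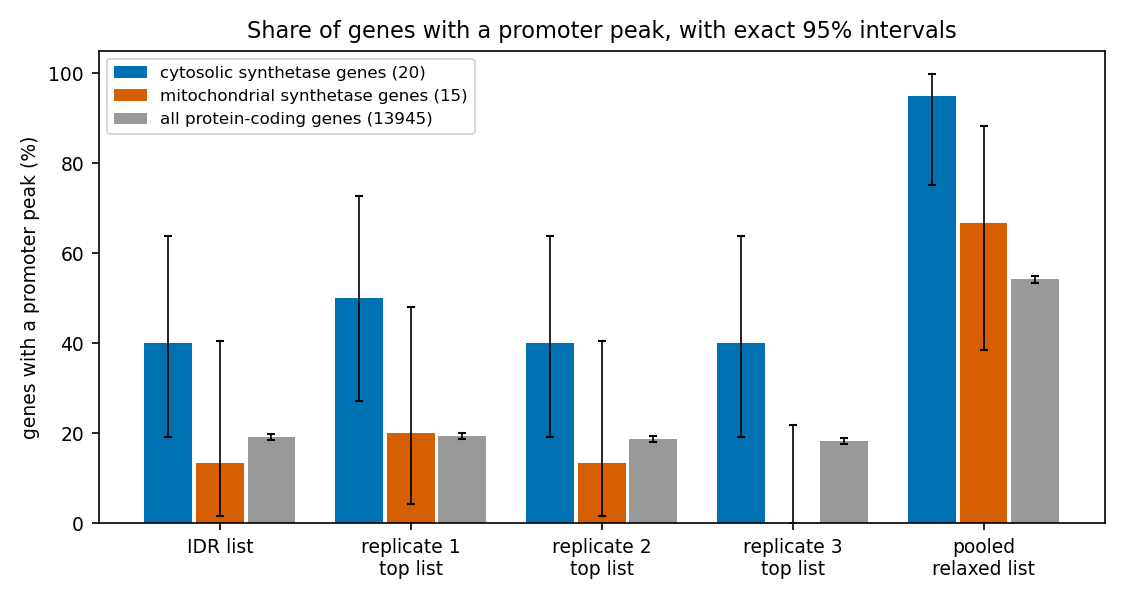
Share of genes with a promoter peak (y axis, percent) in the IDR list, in each replicate's top list and in the pooled relaxed list, for the 20 cytosolic and 15 mitochondrial synthetase genes and all 13945 protein-coding genes. Bars are shares and lines are exact 95% intervals over genes. Cytosolic bars stand at 40.0% in the IDR list against 13.3% for mitochondrial genes, and replicate 3 has no mitochondrial gene in its top list.

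SerRS and GluProRS had the strongest promoter peaks of the family at the 500 bp limit, whereas with a limit of 1000 bp LeuRS-m had a stronger one, of pooled rank 320. Signal, the value per peak given in the deposited lists, has no common scale between lists, so peaks are compared by their rank within a list, with rank 1 the highest. SerRS (FBgn0031497), the enzyme for serine, had its IDR peak at chr2L:3037175-3037594, with a signal of 239.7 and rank 423. Its strongest promoter peak ranked 420, 352 and 636 in replicates 1, 2 and 3, a mean of 469.3 ± 148.3 (SD, n = 3). GluProRS (FBgn0005674), the fused enzyme for glutamate and proline, had its peak at chr3R:23958333-23958752, with a signal of 239.3 and rank 427. Its replicate ranks were 385, 596 and 463, a mean of 481.3 ± 106.7 (SD, n = 3). The ranges of both genes overlap, so their order is not resolved.

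ThrRS, IleRS and AspRS, the enzymes for threonine, isoleucine and aspartate, completed the set of 5 genes, all cytosolic, that reached the top list of every replicate. ThrRS (FBgn0027081; chr2L:12103397-12103816, signal 180.5) ranked 782 in the IDR list and 1405, 766 and 670 in the replicates, a mean of 947 ± 399.5 (SD, n = 3). IleRS (FBgn0027086; chr3L:22288326-22288745, signal 175.5) ranked 830 in the IDR list and 1166, 707 and 1068 in the replicates, a mean of 980.3 ± 241.7 (SD, n = 3). Replicate ranks of ThrRS and IleRS interleave, and each of them is a lower place than any rank of SerRS and GluProRS. AspRS (FBgn0002069; chr2R:12879822-12880241, signal 116.0) ranked 1807 in the IDR list and 1336, 2881 and 1443 in the replicates, a mean of 1886.7 ± 862.8 (SD, n = 3). The AspRS peak was counted at an internal start of the gene, although the start of Nmda1 was nearer to its summit, at 198 bp. AspRS has 3 annotated starts, and the summit lay 252 bp upstream of one that is 3280 bp inside the gene, 3028 bp from the 5′ end.

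The other 5 genes of the IDR list were high in replicates 1 and 2 and low in replicate 3. AsnRS (FBgn0086443; chr2L:19131834-19132253, signal 113.0, IDR rank 1885), the enzyme for asparagine, ranked 1370, 1971 and 6082 in the replicates. Its mean was 3141 ± 2564.6 (SD, n = 3), a spread close to the mean. A subunit of the enzyme for phenylalanine, beta-PheRS (FBgn0039175; chr3R:24252477-24252896, signal 108.7, IDR rank 1999), ranked 1225 and 1496 in replicates 1 and 2 and had no promoter peak in replicate 3. ArgRS (FBgn0027093; chrX:15844067-15844486, signal 88.36, IDR rank 2847), the cytosolic enzyme for arginine, ranked 3325, 1536 and 6922, a mean of 3927.7 ± 2743.1 (SD, n = 3). In replicate 3 its strongest promoter peak was a different one, with a summit 70 bp downstream of the start. The summit matched to the IDR peak ranked 9398 there.

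Both mitochondrial genes of the IDR list had the same pattern. ArgRS-m (FBgn0037526; chr3R:7886699-7887118, signal 125.3), the mitochondrial enzyme for arginine, ranked 1569 in the IDR list and 1327, 1279 and 4095 in replicates 1, 2 and 3, a mean of 2233.7 ± 1612.1 (SD, n = 3). LeuRS-m (FBgn0027085; chr3L:4825569-4825988, signal 79.27), the mitochondrial enzyme for leucine, ranked 3378 in the IDR list, near its end, and 320 when summits up to 1000 bp away counted. In the replicates, at 500 bp, LeuRS-m ranked 2375, 3377 and 22275, a mean of 9342.3 ± 11211.2 (SD, n = 3). In all 5 genes the promoter peak was within the top lists of replicates 1 and 2 and outside that of replicate 3, so each result on them rests on 2 of the 3 samples. Each IDR peak of the family was 420 bp wide. The deposited −log10 q value was 3.81 at 9 of the 10 peaks and 3.35 at LeuRS-m.

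**Figure D2:**
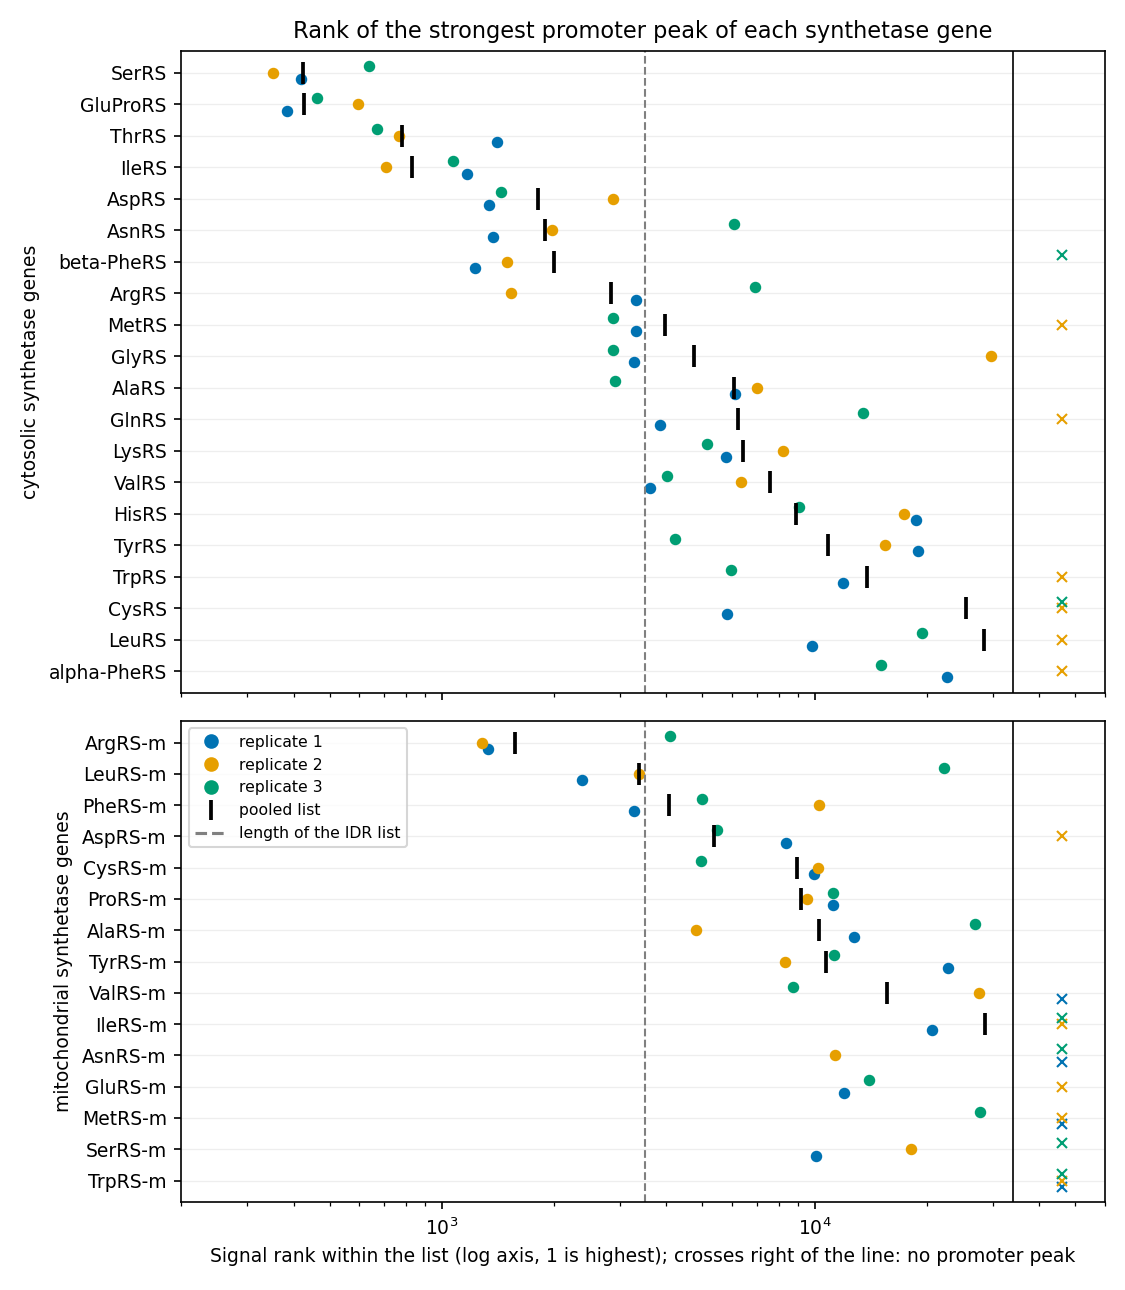
Rank of the strongest promoter peak of each of the 35 synthetase genes (x axis, log scale, 1 is the highest signal) in replicates 1, 2 and 3 (points) and in the pooled list (black bars), with cytosolic genes above and mitochondrial genes below. The dashed line is the length of the IDR list, 3496 peaks, and crosses mark replicates without a promoter peak. SerRS and GluProRS hold the 2 highest ranks in every replicate, and LeuRS-m spreads from 2375 to 22275.

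Another 4 genes had no IDR peak but reached the top list of at least 1 replicate. MetRS (FBgn0034401), which charges both the initiator and the elongator transfer RNA for methionine, ranked 3964 in the pooled list of 30000 peaks and 3320 and 2879 in replicates 1 and 3, with no promoter peak in replicate 2. GlyRS (FBgn0027088), the enzyme for glycine, ranked 4737 in the pooled list and 3273, 29734 and 2873 in the replicates. AlaRS (FBgn0027094), the enzyme for alanine, ranked 6065 in the pooled list and 6121, 7005 and 2920 in the replicates. PheRS-m (FBgn0275436), the mitochondrial enzyme for phenylalanine, ranked 4056 in the pooled list and 3274, 10243 and 4992 in the replicates. Replicate 2 was the lowest or the missing sample at each of these 4 genes, whereas replicate 3 was the lowest or missing one at AsnRS, beta-PheRS, ArgRS, ArgRS-m and LeuRS-m. Across the family, 5 genes were in the top lists of all 3 replicates, 7 in 2, 2 in 1 and 21 in 0.

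Nearly all cytosolic genes had at least a weak promoter peak. The relaxed lists of 30000 peaks include background, and their promoter peaks cover 54.2% of all protein-coding genes in the pooled list and 54.4%, 50.8% and 52.6% in replicates 1, 2 and 3. In the pooled list 29 of the 35 synthetase genes had one, 82.9% (66.4 to 93.4), with 19 of 20 cytosolic genes, 95% (75.1 to 99.9), and 10 of 15 mitochondrial genes, 66.7% (38.4 to 88.2). In the relaxed lists of replicates 1, 2 and 3 there were 20, 14 and 18 cytosolic and 11, 10 and 11 mitochondrial genes. The difference between the classes was then 26.7, 3.33 and 16.7 points, a mean of 15.6 ± 11.7 (SD, n = 3), with an exact two-sided sign-flip p of 0.25. Its direction was that of the top lists in every replicate, but in replicate 2 it amounted to less than the share of a single gene.

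The 19 genes with a pooled but no IDR peak had weak support. Their deposited −log10 q was between 0.0806 and 2.67 with a median of 0.867, and their pooled ranks ran from 3964 to 28601. Beside the 4 genes above, these were the cytosolic GlnRS (rank 6213), LysRS (6411), ValRS (7593), HisRS (8885), TyrRS (10834), TrpRS (13783), CysRS (25504) and LeuRS (28458). The mitochondrial ones were AspRS-m (5373), CysRS-m (8944), ProRS-m (9218), AlaRS-m (10262), TyrRS-m (10715), ValRS-m (15661) and IleRS-m (28601). No pooled promoter peak was found at alpha-PheRS, AsnRS-m, GluRS-m, MetRS-m, SerRS-m and TrpRS-m, whose nearest pooled summits lay 664, 3322, 992, 943, 509 and 655 bp away. The gene TrpRS-m, for the mitochondrial tryptophan enzyme, was the single one without a promoter peak in any relaxed replicate list. At the 500 bp limit, ValRS-m was the last gene inside, at 421 bp, and SerRS-m the nearest outside, at 509 bp. The median distance from a gene's starts to the nearest pooled summit was 121 bp for cytosolic genes, 262 bp for mitochondrial genes and 365 bp for all genes.

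The cytosolic class was ahead at each list length computed between 1000 and 30000 pooled peaks, as the plot of genes against list length shows. Among the 1000 pooled peaks of highest signal, 4 of 20 cytosolic genes (20%) and 0 of 15 mitochondrial genes, which allows up to 20%, had a promoter peak, against 6.76% of all genes. Among the 10000 highest, it was 15 cytosolic genes (75.0%) and 6 mitochondrial genes (40.0%), against 36.7% of all genes. On 15 genes, the mitochondrial synthetase share was below that of all genes in the shorter lists and above it in the longer ones. It was 13.3% against 19.1% at the length of the IDR list and 26.7% against 30.7% among the 7000 highest. Among the 15000 highest it was 53.3% against 43.0%, and in the whole list 66.7% against 54.2%. Its exact intervals were 1.66 to 40.5 in the IDR list and 38.4 to 88.2 in the whole list. Both span the share of all genes, so no crossing is resolved. Ribosomal protein genes, the other large group with a cytosolic and a mitochondrial class, were higher in both classes at the length of the IDR list. In the whole pooled list the cytosolic ones stood at 92.4%, below the 95% of cytosolic synthetase genes. Of the cytosolic ribosomal protein genes 62 of 92 (67.4%) had an IDR promoter peak, and of the mitochondrial ribosomal protein genes 26 of 73 (35.6%). In the replicates' top lists these shares were 64.9% ± 6.37 and 33.8% ± 3.16 (SD, n = 3).

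**Figure D3:**
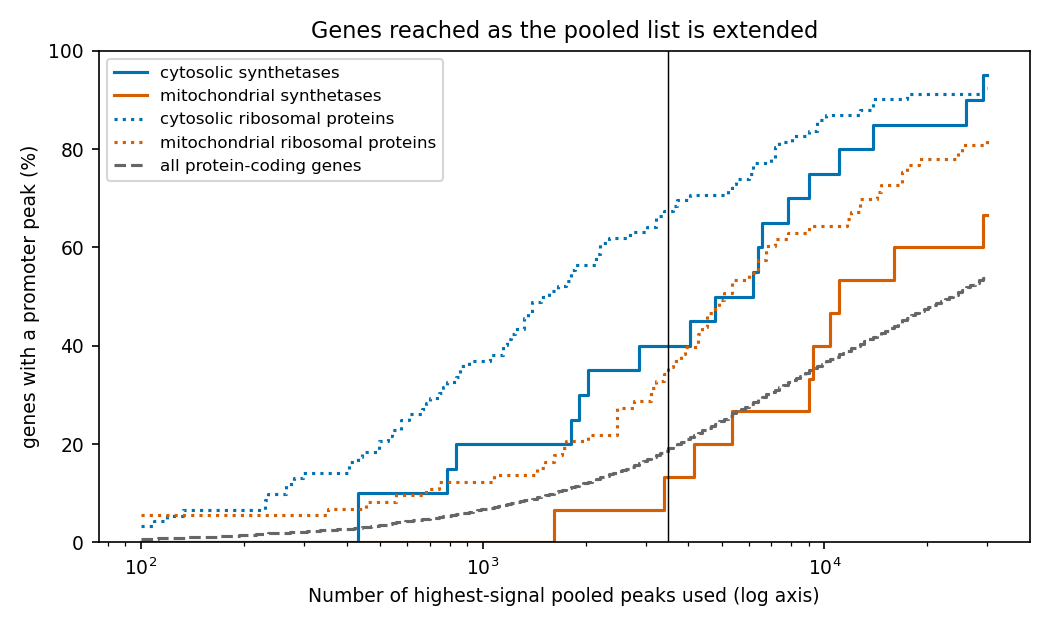
Share of genes with a promoter peak (y axis, percent) as more of the pooled peaks are used, from the highest signal down (x axis, log scale), for synthetase genes (solid lines), ribosomal protein genes (dotted lines) and all protein-coding genes (dashed line). The vertical line is the length of the IDR list, where the cytosolic synthetases stand at 40.0% and the mitochondrial ones at 13.3%.

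Set against each other by amino acid, the cytosolic gene mostly had the stronger peak. For 15 amino acids there is a mitochondrial gene beside the cytosolic one, with GluProRS standing for both glutamate and proline and the stronger of alpha-PheRS and beta-PheRS for phenylalanine. Ranks were those of the relaxed lists, which include background, and a gene without a promoter peak counted as the lower one. For alanine, cysteine, methionine, tryptophan, tyrosine and valine neither gene had an IDR peak. The cytosolic gene ranked higher for 11 of these 15 in the pooled list, and for 13, 8 and 12 in replicates 1, 2 and 3. In replicate 2 the mitochondrial gene ranked higher for 5, and for 2 neither gene had a promoter peak. The cytosolic gene ranked higher in all 3 replicates for 7 amino acids, and the mitochondrial gene did so for 1, arginine. ArgRS-m ranked 1327, 1279 and 4095 and ArgRS 3325, 1536 and 6922 in the same replicates. The other 3 amino acids with the mitochondrial gene ahead in the pooled list were leucine, cysteine and tyrosine, and in each of them the order turned in at least 1 replicate. Leucine was the widest case, with LeuRS-m at 3378 and LeuRS at 28458 in the pooled list. Of the 5 cytosolic genes with no mitochondrial counterpart, GlnRS, GlyRS, HisRS, LysRS and ThrRS, ThrRS alone had an IDR peak, against 7 of the other 15.

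Members of the multisynthetase complex were not set apart beyond a gene or so. The complex was taken as ArgRS, AspRS, GluProRS, GlnRS, IleRS, LeuRS, LysRS and MetRS, of which 4 of 8 (50%; 15.7 to 84.3) had an IDR promoter peak. The other 12 cytosolic genes had 4 (33.3%; 9.92 to 65.1), against 19.1% of all protein-coding genes. Each gene of the complex had another protein-coding start within 500 bp of its own. Of all genes so arranged 37.2% had an IDR promoter peak. Among the other 12, AlaRS, CysRS, ValRS and beta-PheRS had no such neighbour, so the groups also differ in arrangement. In the replicates' top lists, both groups had 5, 4 and 4 genes, 54.2% ± 7.22 of the complex and 36.1% ± 4.81 of the rest (SD, n = 3). Within the complex the genes ranged from GluProRS at pooled rank 427 to LeuRS at 28458.

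Most of these peaks lay between a pair of genes read in opposite directions. Another protein-coding start lay within 500 bp of the start of 23 of the 35 synthetase genes, 65.7%, against 30.9% of all protein-coding genes, and 22 of the 23 were divergent. The share was 16 of 20 for cytosolic genes, 80.0%, and 7 of 15 for mitochondrial ones, 46.7%. Peaks followed this arrangement across the genome, with an IDR promoter peak at 37.2% of genes that had a neighbouring start and 11.1% of genes that had none. Among the synthetase genes it was 9 of 23 with such a neighbour, 39.1%, and 1 of 12 without, 8.33%. Both shares are close to those of all genes of the same arrangement. Of the genes that had a neighbour, cytosolic genes had 7 of 16 (43.8%; 19.8 to 70.1) and mitochondrial genes 2 of 7 (28.6%; 3.67 to 71.0), intervals that largely overlap. Without one, the counts were 1 of 4 and 0 of 8, and the latter allows up to 37.5%. In the replicates' top lists, genes with a neighbour gave 47.9% ± 7.22 for the cytosolic and 19.0% ± 16.5 for the mitochondrial class (SD, n = 3). The part of neighbouring starts in the difference between the classes was not tested.

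A summit between divergent genes cannot be assigned to one of them. Of the 10 synthetase peaks in the IDR list, 9 had another protein-coding start within 500 bp of the summit, and 7 of these were nearer to the synthetase gene. SerRS and CG17260 start 8 bp apart, with the summit 18 bp from the former and 26 bp from the latter. It lay downstream of the SerRS start and so not between both starts. At LeuRS-m the summit was 74 bp from its own start and 92 bp from that of Dhc64C, the heavy chain of cytoplasmic dynein. In both pairs the distances differ by less than 25 bp, the median shift of a replicate summit from the IDR summit. Summits nearer to the synthetase were those of ThrRS, at 144 bp against 322 bp for Patsas, and IleRS, at 129 bp against 341 bp for Hem, a subunit of the WAVE complex of actin assembly. So were those of AsnRS, at 90 bp against 279 bp for DCTN6-p27, a dynactin subunit, and of ArgRS, at 132 bp against 199 bp for CG8578. The ArgRS-m summit was 136 bp from its own start and 176 bp from that of CG17816. Nearer to the neighbour were GluProRS, at 152 bp against 108 bp for AP-1sigma, a subunit of a clathrin adaptor, and AspRS, at 252 bp against 198 bp for Nmda1. The AspRS summit was not between both starts either, since Nmda1 starts at −54 bp from the AspRS start and the summit lay at −252 bp. At ArgRS, ArgRS-m, GluProRS and AspRS the distances to both starts differed by less than 110 bp, the widest shift of a replicate summit from the IDR summit. Replicate summits could lie further from each other, as at AspRS, with −362 and −159 bp in replicates 2 and 3. The peak at beta-PheRS was the one with no second start, and its summit was 8 bp from that of the gene.

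Summits lay just upstream of the synthetase starts, as they did at other genes. Along the direction of transcription the 10 IDR summits ran from −252 to 18 bp with a median of −130.5 bp, and 9 of the 10 were upstream. Over all 2669 genes with an IDR promoter peak the median was −106 bp, with 86.2% upstream. A summit of the same peak, within 150 bp, was found in 29 of the 30 combinations of peak and replicate, the exception being beta-PheRS in replicate 3. The median shift from the IDR summit was 25 bp, and the widest was 110 bp, at AspRS in replicate 2. Their median rank in the IDR list was 1688, against 1504 over all genes with an IDR promoter peak, and 5 of the 10 were among the upper 1748 peaks.

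**Figure D4:**
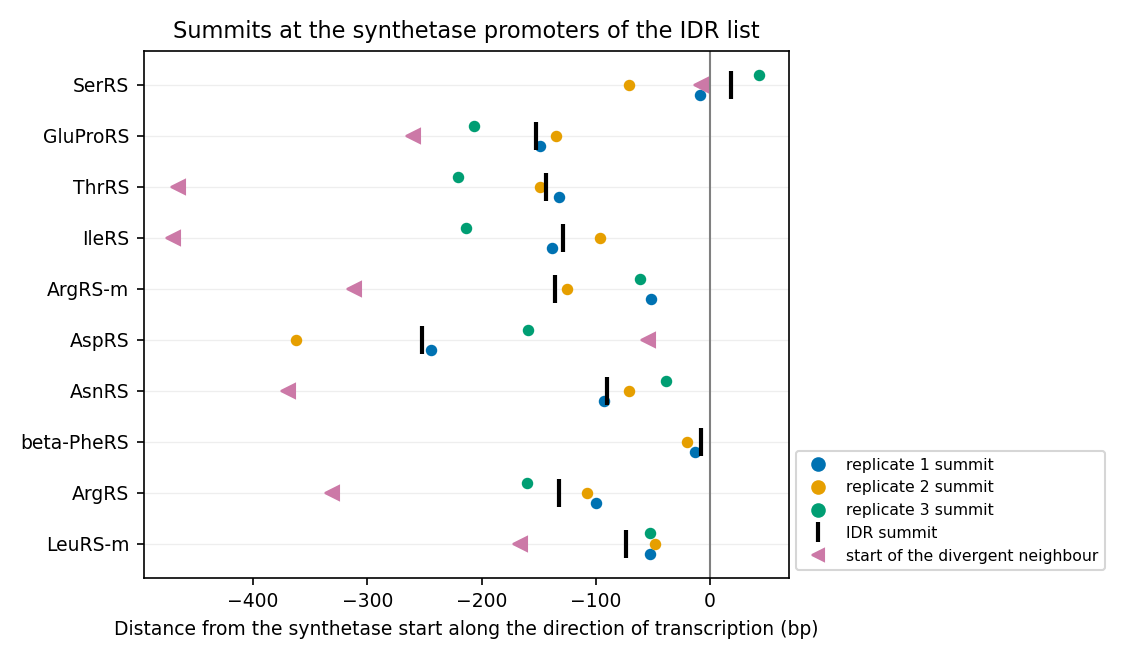
Position of the summits at the 10 synthetase genes of the IDR list, in bp from the nearest start of the gene along its direction of transcription (x axis; 0 is the start and negative values are upstream). Points are the replicate summits, black bars the IDR summits and triangles the start of the divergent neighbour. The bars run from −252 bp at AspRS to 18 bp at SerRS, and beta-PheRS has no triangle.

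None of the 6 consensus sequences was in most of the promoters with an IDR peak. Promoters were read from 250 bp before to 50 bp after the 5′ end, on both strands. The same was done at AspRS, although its peak was counted at an internal start. The DREF/BEAF consensus, in the capitals of ArgRS, IleRS, AlaRS and TrpRS above, was in 5 of the 35 synthetase promoters, 14.3%, against 9.36% of all protein-coding promoters, and the fifth gene was PheRS-m. Of the 10 genes with an IDR peak 2 had it, 20%, against 16.2% of all genes with one. The letters lay 34 and 42 bp upstream of ArgRS and IleRS, more than 50 bp from the summits there. They were in 0 of the 10 windows of 50 bp to either side of a summit, against 3.38% of all IDR summits. With 100 bp to either side the order turned, to 1 of 10 windows, 10%, against 5.92%. AlaRS and TrpRS hold the letters 19 and 72 bp upstream without an IDR peak, and GluProRS has an IDR peak without them.

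The NR2E half-site, the sequence bound by Hr51's own receptor group, was in 6 of 35 synthetase promoters, 17.1%, against 16.2% of all promoters. Within 500 bp to either side of the start the order turned, to 31.4% against 39.6%. Among promoters of genes with an IDR peak it was in 4 of 10 synthetase genes, SerRS, ThrRS, IleRS and beta-PheRS, 40.0%, against 13.5% of all genes with such a peak. Around the summits it was in 2 of 10 windows, those of ThrRS and beta-PheRS, 20%, against 4.81% of all IDR summits. Counts of 4 and 2 genes are too few to set these shares apart from the rest. The TATA box letters were in 19 of 35 promoters, 54.3%, against 45.8%, and the order turned within 500 bp to either side of the start, at 65.7% against 74.5%. GC content had a median of 35.3% in synthetase promoters and 38.0% in all. The GC content of the 10 summit windows had a median of 28.7%, from 21.8% to 45.5%, against 36.6% for all IDR summits. M1BP's consensus was in 3 promoters (8.57% against 4.5%), at GlnRS, AsnRS-m and ProRS-m, none of them with an IDR peak. The E-box was in 2 (5.71% against 4.2%), at GlnRS and LeuRS-m. The ATF4 response element was in 2 as well (5.71% against 4.07%), at CysRS and, 97 bp upstream, in the capitals of beta-PheRS. Matches are a description of the letters and not of binding.

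Other genes of transfer RNA charging and translation had IDR promoter peaks at shares that differed from list to list, on few genes each, against 19.1% of all genes. Among proteins that work with charged transfer RNA, GatA, a subunit of the mitochondrial amidotransferase that makes Gln-tRNA, had an IDR peak of rank 620 with a signal of 203.8, and CG10802 one of rank 1121. They were 2 of 4 genes of that list. Of 3 scaffold proteins of the multisynthetase complex, AIMP1 had an IDR peak, of rank 3158 with a signal of 82.97, whereas AIMP2 and AIMP3 had no pooled promoter peak. In transfer RNA maturation, RNaseZ, which trims the 3′ end of precursors, had an IDR peak of rank 1069, and La, which binds the same 3′ ends, one of rank 1892. Cytosolic elongation and release factors had 5 of 9, led by eEF1gamma (198), eEF1alpha1 (458) and eEF5 (619). Mitochondrial translation factors had 1 of 8, mEFTu2 (2087). For the last 2 lists the replicates' top lists gave 63.0% ± 6.42 and 16.7% ± 7.22 (SD, n = 3).

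Regulators that act on synthetase genes or respond to amino acid shortage had 4 of 6 in the IDR list, against 19.1% of all genes. Their top-list counts were 4, 2 and 4 of 6 in replicates 1, 2 and 3, on average 55.6% ± 19.2 (SD, n = 3). Those in the IDR list were Atf3 (rank 34, signal 670.7), a transcription factor of the same leucine zipper class as ATF4, REPTOR (170), a factor repressed by TOR signalling, Thor (2089), the inhibitor of cap-dependent translation, and Gcn2 (3137), the kinase that senses uncharged transfer RNA, which was in the top list of 1 replicate. The ATF4 gene itself, crc, was at pooled rank 5417, outside the IDR list. In the ribosomal protein lists the highest were RpS27 (50), RpL7 (52) and RpL34b (94) for the cytosol, and mRpL41 (14), mRpS23 (15) and mRpS10 (19) for the mitochondrion. These 6 ribosomal protein genes rank above SerRS, the highest synthetase gene at 423. These lists were assembled with earlier results of the same data known, so their counts are context and not evidence of a trend.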

How the data were processed

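Hr51 ChIP-seq of 3 replicates was taken from 5 deposited peak lists in dm6 coordinates: a relaxed list of 30000 peaks per replicate, a pooled one, and the optimal IDR list. The authors' lists give each peak a signal and a −log10 q value. Sources used here do not name the aligner or the peak caller. The IDR list held exactly the 3496 pooled peaks of highest signal. Its lowest signal was 77.3 and its lowest −log10 q 3.0, against 0.0686 in the pooled list. Genes came from Ensembl release 115 (BDGP6.54). Signal was used for ranks within a list. Shares have exact Clopper-Pearson intervals, and the class difference an exact sign-flip test over replicates. The counting was tested on simulated data. Python 3.11.15, numpy 2.4.6, pandas 2.3.3, scipy 1.17.1 and matplotlib 3.10.9 were used.

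The synthetase genes, the lists, the consensus sequences and the tests were chosen with earlier results of these data known. All synthetase genes are accounted for: values are given for those in the IDR list or a top list, and up to 3 genes of each context list, the highest in the IDR list, are named, except 1 that is not reported here. Gcn2, crc, AIMP2 and AIMP3 were added after their values were seen. Of 45 context symbols, 38 matched the annotation and 7 did not. Alternatives were other distances (250 and 1000 bp), the 5′ end only, other list lengths, other windows and leaving out each replicate.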

Additional observations from a re-analysis of the deposited data

How the results depend on the processing

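The cytosolic class stayed ahead of the mitochondrial one in every alternative run on it, with a mean difference over replicates from 15.6 points in the relaxed lists to 35.0 points. Whether a share lay above that of all genes did change. The shares followed the length of the list. In the highest 1748 peaks they were 14.3% for all synthetase genes, 20% for cytosolic and 6.67% for mitochondrial genes, against 11% of all genes, a difference of 13.3 points. With all relaxed pooled peaks they were 82.9%, 95% and 66.7%, against 54.2%. With each replicate left out in turn, the IDR peaks kept were those in the top lists of both others, 2074, 2163 and 2374 peaks without replicates 1, 2 and 3. The shares then ranged from 14.3% to 28.6% for all, 25.0% to 40.0% for cytosolic and 0% to 13.3% for mitochondrial genes, and all genes from 12.5% to 14.2%. The lower values came without replicate 1 and without replicate 2, because 5 of the 10 genes were outside the top list of replicate 3. Without genes that have a neighbouring start the shares were 8.33%, 25.0% and 0%, against 11.1% of all genes, on 12 synthetase genes. With a limit of 250 bp the peak at AspRS was replaced by one of rank 6402, and with 1000 bp that at LeuRS-m by one of rank 320, above SerRS and GluProRS. The ATF4 response element was in 37.1% of synthetase genes within 500 bp to either side of the start and in 34.3% from the start to 500 bp after, a window chosen after seeing the data, against 13.9% and 7.03% of all genes. Within 500 bp to either side the NR2E half-site was in 31.4% against 39.6% and the TATA box in 65.7% against 74.5%, both orders opposite to those in the shorter promoters. Of the alternative values, 76 counted as unchanged and 19 as moved, by a rule set for each kind of result. For the mean class difference the rule asked only for the same sign, so 15.6 points counted as unchanged. A gene share was judged by its ratio to the main value, and a motif share by its exact interval. Ranks and the difference in the IDR list were judged by the SD over replicates. No paired analysis was possible because there was 1 group of samples, and the difference between the classes was already taken within each replicate. Depth is unknown, and with 15 mitochondrial genes a class share is known only within the wide intervals given.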

Other observations

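The letters of the ATF4 response element, TGATGNAA on either strand, were frequent just downstream of the starts of cytosolic synthetase genes. From the 5′ end to 500 bp after it, they were in 10 of 20 cytosolic genes (50%) and 2 of 15 mitochondrial ones (13.3%), against 7.03% of all protein-coding genes. Cytosolic and mitochondrial ribosomal protein genes had 5.43% and 8.22% in the same window. The window was chosen after a search of 500 bp to either side, so these shares are a description without a test. Of the 14 matches, 5 were in 5′ UTRs, 5 in introns and 4 in coding exons, and they lay from 11 bp after the start at CysRS to 492 bp at ThrRS. The cytosolic genes were ArgRS, AsnRS, CysRS, GluProRS, HisRS, IleRS, LeuRS, LysRS, MetRS and ThrRS. The mitochondrial ones were GluRS-m and PheRS-m.

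Most of these cytosolic genes held the form TGATGCAA. It was in 7 of 20 cytosolic genes, 35.0%, and 1 of 15 mitochondrial genes, 6.67%, against 1.57% of all protein-coding genes. This narrower form of TGATGNAA was not among the consensus sequences set for the search. It was counted in the window chosen after seeing the data, so its shares are a description without a test. The 7 were ArgRS at chrX:15843682-15843689, AsnRS at chr2L:19131898-19131905, GluProRS at chr3R:23958104-23958111, IleRS at chr3L:22288957-22288964, LeuRS at chr2L:3514448-3514455, MetRS at chr2R:18850320-18850327 and ThrRS at chr2L:12104243-12104250. In the window of 500 bp after the start 5 of the 10 synthetase genes with an IDR peak and 7 of the 25 without one held a match to TGATGNAA, 50% and 28.0%. These 5 were ArgRS, AsnRS, GluProRS, IleRS and ThrRS, all cytosolic. Of the 10 genes with an IDR peak 8 were cytosolic, so peak and class cannot be told apart here. Among all genes with an IDR promoter peak the share was 6.29%, near that of all genes. The ATF4 element was in 0 of the 10 windows of 50 bp to either side of the synthetase summits, against 1.49% of all IDR summits, and in 1 of 10 with 100 bp to either side, against 2.63%.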
